A study of Homo sapiens with 54 samples.

Results

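The 39 human HOX genes were read across cell classes and days of a macrophage culture and across bulk macrophage libraries. They are all genes whose symbol is HOX, a letter from A to D and a number from 1 to 13, with antisense and other noncoding genes left out. They make up 39 of 36601 genes in the single-cell tables and 39 of 58735 genes in the bulk table. HOX genes encode homeodomain transcription factors that give cells a position along the body axis. They lie in 4 complexes, HOXA to HOXD, and genes at the 3′ end of a complex are switched on earlier and further towards the head than genes at its 5′ end. HOX proteins bind DNA together with PBX and MEIS partners, retinoic acid and CDX factors act upstream of them, and Polycomb and MLL complexes keep them off or on. In blood formation HOX genes of the A and B complexes are known from stem and progenitor cells and from leukaemia.

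All cells came from H1, a human embryonic stem cell line, and the labels call every sample a macrophage, the single-cell libraries included. Cells grew on a porous 3D microscaffold or flat in 2D. Single-cell RNA was measured once each at days 7, 9 and 12 of 3D culture. The 32 bulk libraries were the 3D groups E. coli, SP6A and SP14 (2 each), 3D days 16, 19 and 23 with FBS (3 each) and without FBS (3 each), 3D day 12 (4) and 2D day 12 (4). FBS is fetal bovine serum. The labels used here do not say what SP6A and SP14 stand for, and they give the E. coli libraries no day. Nothing in them says that replicates came from separate cultures, so p-values measure only the spread between these libraries, which may be technical.

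Of 7034, 12891 and 8159 barcodes at days 7, 9 and 12, 6767, 11727 and 7961 passed the filters, from which 216, 435 and 369 predicted doublets were removed. Pairs of days shared 15 to 21 barcodes. Cells were clustered without any HOX gene, and clusters were named by markers. Endothelial-like cells (1757, 1935 and 304 cells at days 7, 9 and 12) reached 20 CPM (the summed counts of a class scaled to a fixed total) for 12 of 12 endothelial markers. Stroma-like cells were given at day 12 only (3520 cells, 11 of 12 markers), with 2 and 21 at days 7 and 9. That depends on the clustering, since classing by markers cell by cell put 273, 1747 and 2761 cells at days 7, 9 and 12 with stroma. Erythroid-like cells numbered 843, 816 and 241 at the 3 days, and endoderm-like cells 495 and 337 at days 7 and 9. Macrophage-like cells were given at day 12 only (2129 cells, 14 of 14 markers), so most cells of these libraries were not macrophage-like. With 1 library per day, day and library cannot be told apart. Single-cell differences between days and between classes are given as values, without a test. Intervals given for single-cell values are exact, at 95%, and cover counting error only. In the bulk libraries 7954 to 13257 genes reached 1 TPM (a level scaled for transcript length and library total), their read totals were not stated in the sources read, and macrophage markers reached 1 TPM for 13 or 14 of 14 in each group.

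On GRCh38 the HOXA complex spans 27092993 to 27200091 on chromosome 7, with 11 genes. The HOXB complex spans 48528526 to 48728750 on chromosome 17, with 10 genes. The HOXC complex (9 genes) spans 53938831 to 54056030 on chromosome 12, and the HOXD complex (9 genes) 176087487 to 176190907 on chromosome 2. Of the 39 genes, 11 overlap another HOX gene in this annotation, among them HOXB3 with HOXB4, HOXD3 with HOXD4 and HOXC4 with HOXC5 and HOXC6. Counts of such pairs may be split differently by another annotation. The RefSeq promoter table used here held 27 windows of 300 bases for 20 HOX genes. Their median number of CpG pairs was 22, against 14 over all 35116 windows of the table, while the median GC content was 58.0% and 58.7%. The windows of 3 genes are printed. HOXD3 had the largest fold between days 7 and 12 in endothelial-like cells, HOXC4 belongs to the complex that gave 27.1% of HOX counts in stroma-like cells, and HOXB1 is the only HOXB gene among the 20. The figures on CpG pairs and motifs thus do not cover HOXB2 to HOXB9, and HOXB1 itself stayed under 10 CPM in each class. HOXD3 lies at chr2:176157057-176157356 on the plus strand with 25 CpG pairs, HOXC4 at chr12:54016638-54016937 on the plus strand with 15, and HOXB1 at chr17:48530962-48531261 on the minus strand with 11. The capitals in HOXB1 mark a match to TGATNNAT, a motif bound by a PBX and HOX pair.
HOXD3: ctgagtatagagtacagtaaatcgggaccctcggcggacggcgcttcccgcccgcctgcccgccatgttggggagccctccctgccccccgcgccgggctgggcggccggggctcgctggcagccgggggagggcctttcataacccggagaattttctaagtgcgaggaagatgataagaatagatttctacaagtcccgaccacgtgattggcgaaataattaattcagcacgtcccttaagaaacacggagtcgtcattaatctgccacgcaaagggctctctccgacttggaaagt
HOXC4: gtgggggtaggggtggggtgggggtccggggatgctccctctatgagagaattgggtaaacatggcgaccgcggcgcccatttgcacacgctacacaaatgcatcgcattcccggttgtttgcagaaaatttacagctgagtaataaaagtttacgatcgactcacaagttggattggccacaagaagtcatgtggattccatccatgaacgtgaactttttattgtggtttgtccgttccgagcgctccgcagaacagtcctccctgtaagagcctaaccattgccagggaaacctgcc
HOXB1: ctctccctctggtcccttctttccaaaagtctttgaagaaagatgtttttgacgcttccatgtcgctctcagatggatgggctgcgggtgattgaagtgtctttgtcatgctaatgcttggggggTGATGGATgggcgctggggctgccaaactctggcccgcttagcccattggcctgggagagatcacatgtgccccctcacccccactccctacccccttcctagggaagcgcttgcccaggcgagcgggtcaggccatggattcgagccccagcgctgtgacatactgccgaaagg
On either strand, TGATNNAT occurred in 3 of the 27 HOX windows (HOXB1, HOXA2 and HOXD11), which is 11.1%, against 7.40% of all windows. AGGTCA, a motif of nuclear receptors such as the retinoic acid receptors, occurred in 0 of 27, against 13.8% of all windows. A match is no evidence of binding, and a window without one says nothing of the factor.

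In single cells HOX RNA was mostly HOXB RNA. Of the 39 genes, 16 reached 10 CPM in at least 1 class and day. They were HOXA3, HOXA10, HOXB2 to HOXB9, HOXC4, HOXC6, HOXC8, HOXC9, HOXC10 and HOXD3. The other 23 stayed below, and HOXC12 and HOXD12 had no UMI (unique molecular identifier, 1 counted RNA molecule) in any cell. HOX genes at 10 CPM numbered 16 in stroma-like cells, 8, 7 and 9 in endothelial-like cells at days 7, 9 and 12, 5 and 4 in endoderm-like cells at days 7 and 9, 2, 1 and 1 in erythroid-like cells, 1 in macrophage-like cells and 0 in granulocyte-like cells. Summed over the 39 genes, HOX RNA made 501 CPM in stroma-like cells (495 to 507). It made 239, 233 and 385 CPM in endothelial-like cells at days 7, 9 and 12, 152 and 91.0 CPM in endoderm-like cells at days 7 and 9, and 64.7, 47.8 and 54.5 CPM in erythroid-like cells. Macrophage-like cells had 32.6 CPM and granulocyte-like cells 14.0 CPM. The order of these 5 classes at day 12 was stroma, endothelium, erythroid cells, macrophages and granulocytes, and no 2 neighbours had overlapping intervals. Megakaryocyte-like cells of that day, left out of this order, had 60.8 CPM (52.8 to 69.8), overlapping erythroid-like cells (47.6 to 62.1). These intervals cover counting error in 1 library only.

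**Figure D1:**
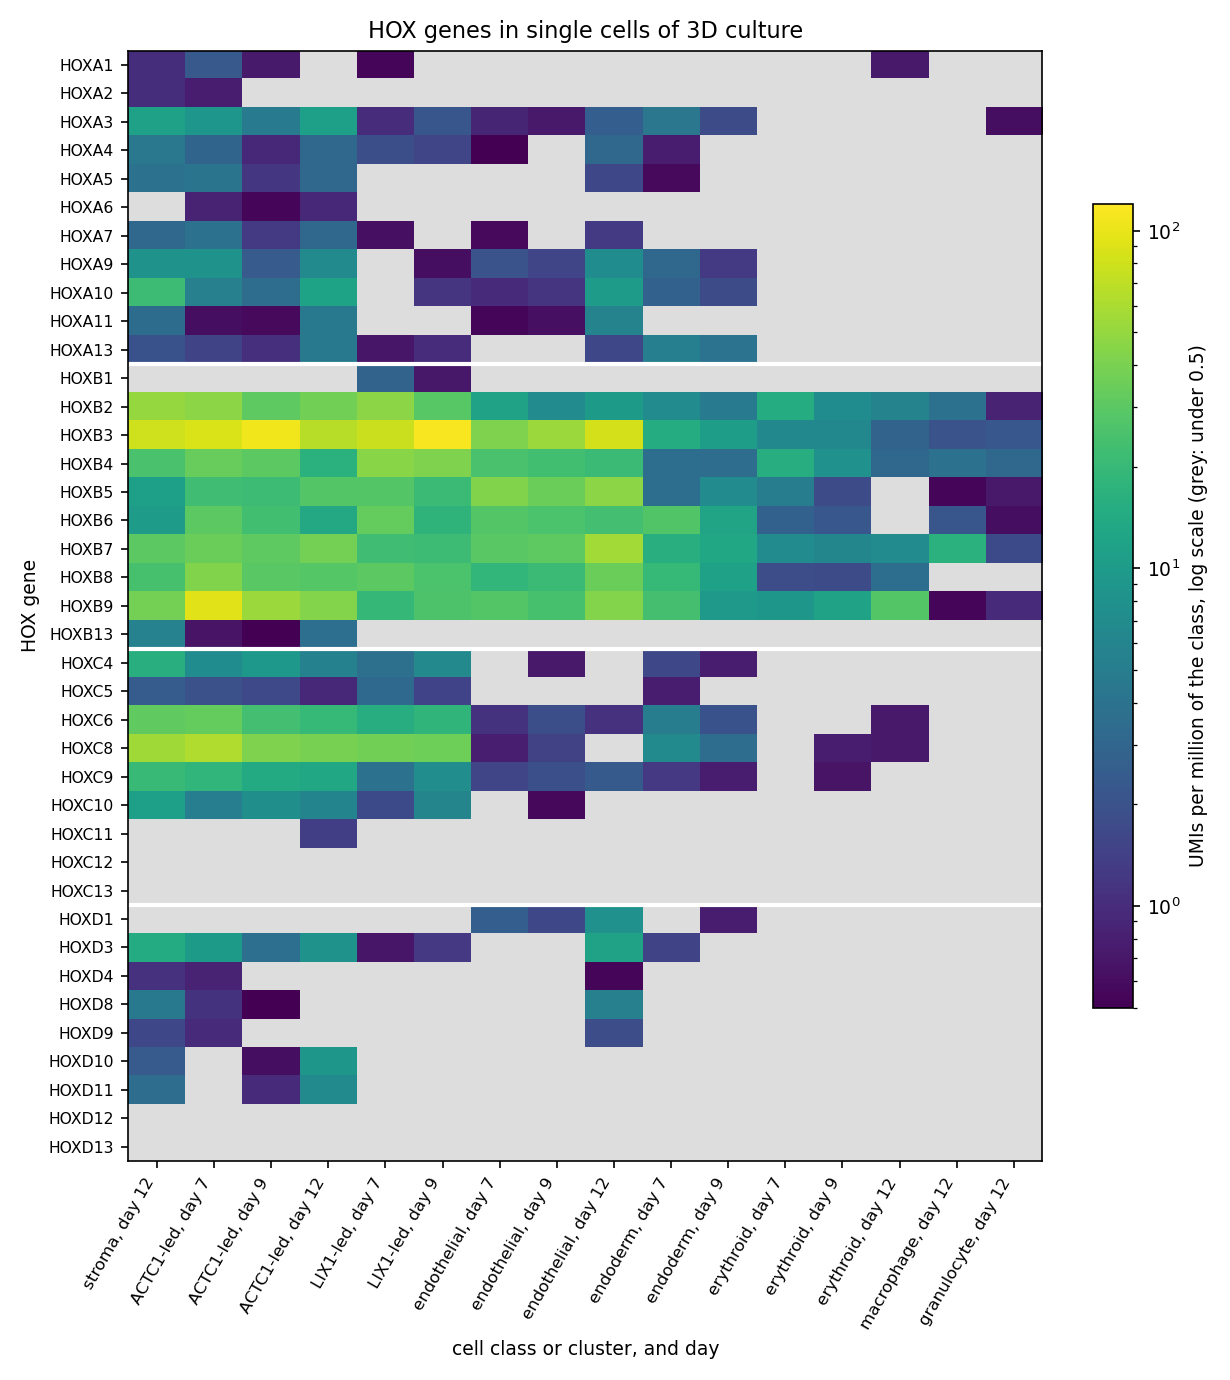
The 39 HOX genes (rows, by complex) in 16 cell classes or clusters and days (columns) of 3D culture, coloured by CPM on a log scale, with values under 0.5 in grey. HOXB2 to HOXB9 fill most columns, the HOXC rows are filled in stroma and in the clusters led by ACTC1 and by LIX1, and HOXB7 is the only gene above 10 CPM in macrophages.

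Between these classes the complexes differed in share. HOXB genes gave 94.1%, 93.9% and 82.8% of HOX UMIs in endothelial-like cells at days 7, 9 and 12, 97.1%, 94.5% and 93.4% in erythroid-like cells, 76.3% and 79.8% in endoderm-like cells at days 7 and 9, and 93.2% in macrophage-like cells. In stroma-like cells they gave 55.2%, beside 27.1% from HOXC, 12.1% from HOXA and 5.60% from HOXD. HOXC RNA made 136 CPM in stroma-like cells, 4.57 CPM in endothelial-like cells of the same library and 1.16 CPM in its macrophage-like cells. Among blood classes at day 12 the HOXB share was lower in megakaryocyte-like cells (83.8%, with 10.3% from HOXC, of 204 HOX UMIs). It was lower too in granulocyte-like cells (77.4%, with 10.4% from HOXC and 8.70% from HOXA, of 115 HOX UMIs). HOXC RNA made 6.26 CPM in megakaryocyte-like and 1.46 CPM in granulocyte-like cells. Stroma markers summed to 1164 CPM in megakaryocyte-like and 440 CPM in granulocyte-like cells. They summed to 342 CPM in erythroid-like, 274 CPM in macrophage-like and 23902 CPM in stroma-like cells of that day. The part of stroma RNA in these shares was not tested.

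**Figure D2:**
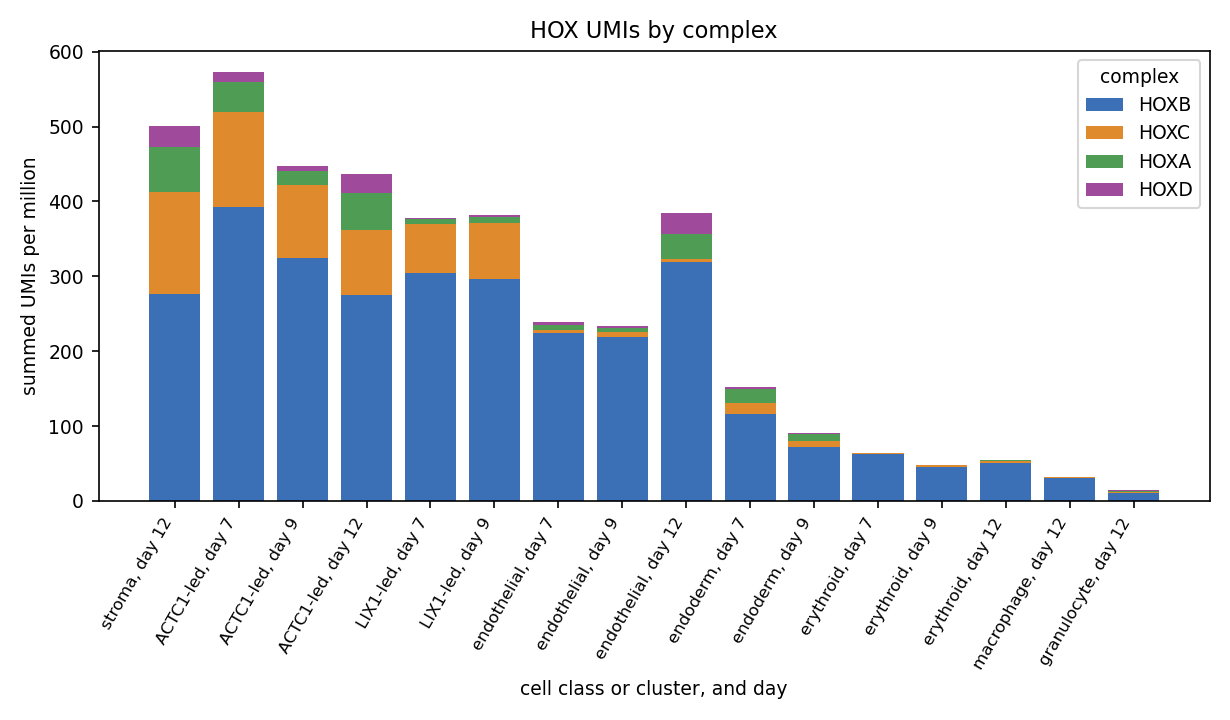
Summed CPM of the HOXA, HOXB, HOXC and HOXD complexes (stacked bars) by cell class or cluster and day. Stroma at 501 CPM holds a large HOXC part (136 CPM), the clusters led by ACTC1 and by LIX1 do too, and macrophages and granulocytes stay at 32.6 and 14.0 CPM.

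At the level of single cells, cells of at least 5000 UMIs were thinned to 5000 each so that depth did not set the shares. Cells below that were left out of the shares, among them 32 of 304 endothelial-like cells at day 12 and 63 of 337 endoderm-like cells at day 9. A UMI of any HOX gene was then found in 87.1% of stroma-like cells, in 64.3%, 64.5% and 82.7% of endothelial-like cells at days 7, 9 and 12, in 41.1% and 29.9% of endoderm-like cells at days 7 and 9, and in 24.4%, 20.5% and 23.2% of erythroid-like cells. Macrophage-like cells showed one in 15.8% of cells and granulocyte-like cells in 5.78%. Median depth before thinning was 13277.5 UMIs in stroma-like cells, 16310.5 in endothelial-like cells at day 12, 29875 in macrophage-like cells and 15668 in granulocyte-like cells. UMIs of 3 or more HOX genes in 1 cell were seen in 39.3% of stroma-like cells, in 8.64%, 8.16% and 23.2% of endothelial-like cells by day.

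Stroma-like cells of day 12 were led by HOXB3 at 80.7 CPM, HOXC8 at 54.8 CPM and HOXB2 at 49.9 CPM. HOXB3 and HOXB2 are 3′ genes patterning the hindbrain and neck, and HOXC8 is a central gene patterning the trunk. Below them were HOXB9 (38.5 CPM), HOXC6 (31.4 CPM), HOXB7 (30.4 CPM), HOXB4 (25.1 CPM), HOXB8 (24.2 CPM), HOXA10 (21.5 CPM) and HOXC9 (20.02 CPM). HOXC4 (15.7 CPM), HOXD3 (14.6 CPM), HOXA3 (11.4 CPM), HOXB5 (11.1 CPM), HOXC10 (11.01 CPM) and HOXB6 (10.4 CPM) were close to the 10 CPM limit. HOXC6 and HOXC9 pattern the chest, HOXC10 the lumbar region, and HOXA3 the neck and thymus. The 5′ gene HOXB13, known from prostate and tail bud, had 5.71 CPM.

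Against macrophage-like cells of the same library, 15 of the 16 genes were at least 2-fold higher in stroma-like cells, where 26.4% of all genes were. The median fold of the 16 was 73.0, and that of all genes 1.04. Only HOXB7 of the 16 reached 10 CPM in macrophage-like cells, so the other 15 entered through stroma-like cells alone. All genes include those that entered through macrophage-like cells, so their share and median are no fair measure for these 15. HOXC8 was 140.5-fold higher (54.8 CPM against 0.390 CPM in macrophage-like cells; interval 95.7 to 215). The exception was HOXB7, at 30.4 CPM in stroma-like cells and 16.7 CPM in macrophage-like cells, a fold of 1.82 (1.69 to 1.97). Against endothelial-like cells of day 12, 8 of the 16 genes were at least 2-fold higher in stroma-like cells (14.3% of all genes) and 2 at least 2-fold lower (21.9%). All 16 reached 10 CPM in stroma-like cells and 9 of them in endothelial-like cells, which favoured higher values in stroma-like cells. All 5 HOXC genes were among the 8, with HOXC8 at 54.8 CPM in stroma-like and 0.366 CPM in endothelial-like cells (149.8-fold, 41.4 to 1237). HOXA3, HOXA10 and HOXB2 were the others, HOXB2 at 49.9 CPM in stroma-like and 9.88 CPM in endothelial-like cells. The 2 lower genes were HOXB5 (11.1 CPM in stroma-like and 46.3 CPM in endothelial-like cells) and HOXB6 (10.4 CPM in stroma-like and 23.2 CPM in endothelial-like cells). HOXB3 had 80.7 CPM in stroma-like and 84.7 CPM in endothelial-like cells, a fold of 0.953 whose interval (0.866 to 1.05) includes 1.

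Endothelial-like cells were led by HOXB5, HOXB3 and HOXB7 at day 7, by HOXB3, HOXB5 and HOXB7 at day 9 and by HOXB3, HOXB7 and HOXB5 at day 12. HOXB3 had 41.7, 52.6 and 84.7 CPM at days 7, 9 and 12, HOXB5 42.7, 35.0 and 46.3 CPM, and HOXB7 29.7, 30.6 and 55.6 CPM. HOXB5 marks long-term blood stem cells in the mouse, and HOXB3 and HOXB7 are known to promote vessel formation. HOXB4, which expands blood stem cells when forced on, stayed at 24.8, 23.03 and 20.8 CPM, and HOXB6 at 27.8, 25.4 and 23.2 CPM. HOXB8, whose forced expression holds myeloid progenitors immature, had 18.7, 20.9 and 34.7 CPM, and HOXB9 27.6, 24.5 and 43.0 CPM.

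At day 12 the endothelial-like cells showed more RNA of the HOXA and HOXD complexes than at day 7. HOXD RNA made 3.27, 2.27 and 27.6 CPM at days 7, 9 and 12, and HOXA RNA 6.63, 5.24 and 33.8 CPM, while HOXC RNA stayed at 4.21, 6.69 and 4.57 CPM. Day 12 was highest in other cells too. The cluster led by ACTC1 and ANKRD1, genes of early muscle, had HOXD RNA at 13.3, 6.84 and 25.3 CPM and HOXA RNA at 39.6, 17.6 and 50.05 CPM, and HOXA RNA made 0.650, 0.874 and 2.98 CPM in megakaryocyte-like and 0.543, 0.337 and 1.45 CPM in erythroid-like cells. The megakaryocyte-like class of day 12 took in a further cluster that had 0 cells at day 7. HOXD3, a 3′ gene known from migrating endothelium, had 0.336, 0.198 and 11.7 CPM, and its share of thinned cells with a UMI was 0.240%, 0.0555% and 6.25%. HOXA10, a 5′ gene known from the uterus and from blood progenitors, had 0.985, 1.15 and 10.1 CPM. Of the 10 HOX genes at 10 CPM in either day, HOXD3 (34.8-fold, 19.3 to 67.2), HOXA10 (10.2-fold, 6.69 to 15.7) and HOXB3 (2.03-fold, 1.83 to 2.25) were at least 2-fold higher at day 12 than at day 7, as were 4.65% of all genes. None of the 10 was at least 2-fold lower, against 4.82% of all genes. HOXD3 and HOXA10 reached 10 CPM at day 12 only of these 2 days, so they could not have come out lower. A further 4 genes, chosen after their values were seen, stayed under 10 CPM but showed the same order. HOXD1 had 2.55, 1.65 and 8.05 CPM at days 7, 9 and 12, HOXD8 0.192, 0.165 and 5.49 CPM, HOXA9 2.04, 1.58 and 7.13 CPM, and HOXA11 0.553, 0.626 and 5.85 CPM. HOXA9 is needed for adult blood stem cells in the mouse, and HOXA11 is a limb and uterus gene. In stroma-like cells of day 12 HOXD3 had 14.6 CPM, HOXA10 21.5 CPM and HOXA9 8.33 CPM, each above its value in endothelial-like cells of that day. HOXA RNA summed to 60.7 CPM in these stroma-like cells. HOXD1, HOXD8 and HOXA11 went the other way, with their highest values of all classes and clusters in endothelial-like cells of day 12. HOXD1 had 0.0188 CPM in stroma-like cells, from 1 UMI in 3520 cells. The part of stroma RNA in the endothelial-like values of day 12 was not tested.

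Day 12 held 304 of these cells, and its endothelial-like cells carried 489 CPM of summed stroma markers, with 5 of 12 at 20 CPM, where the stroma-like cells had 23902 CPM. HOXC8, the gene second highest in stroma-like cells, had 2 UMIs in these 304 cells. After thinning it was found in 0% of the 272 cells deep enough to thin, with an exact upper bound of 1.35%. Under the other settings for classing cells, HOXD3 at day 12 lay between 11.4 and 11.9 CPM, HOXA10 between 9.49 and 10.2 CPM and HOXD1 between 7.46 and 8.07 CPM.

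**Figure D3:**
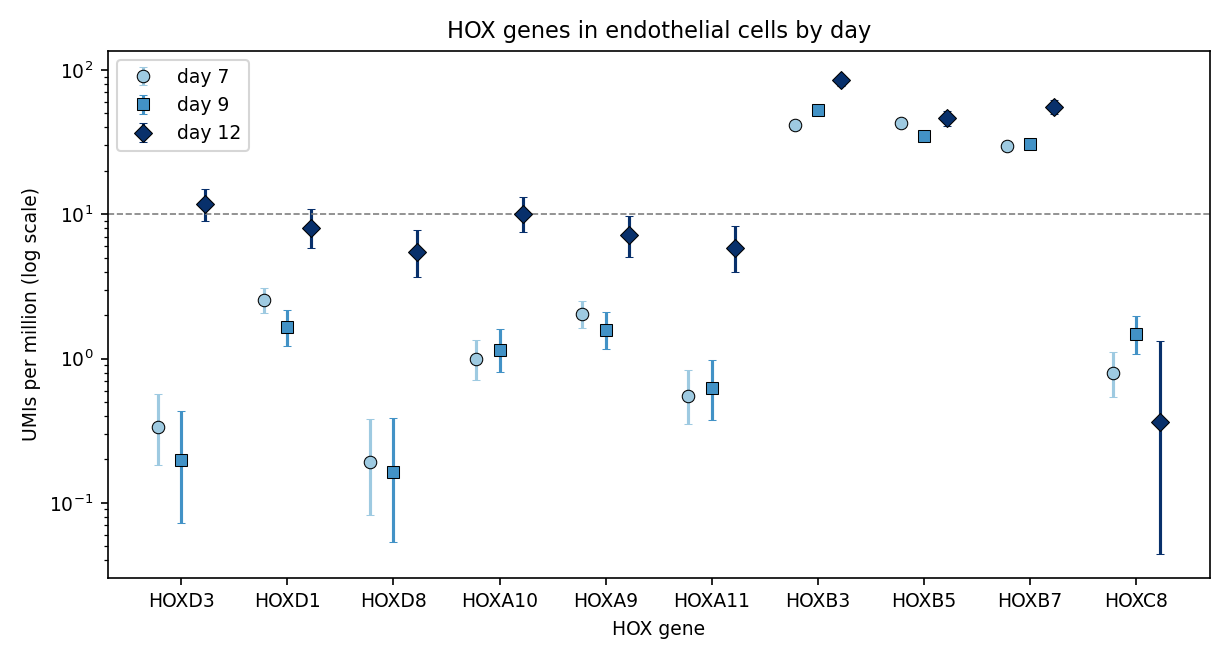
CPM (log scale) of 10 HOX genes in endothelial-like cells at days 7, 9 and 12, with exact 95% intervals for counting error and a dashed line at 10 CPM. HOXD3, HOXD8, HOXA10 and HOXA11 stand apart at day 12, while HOXB5 and HOXB3 are high on each day and HOXC8 is low on each day.

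Erythroid-like cells held little HOX RNA. They were led by HOXB4, HOXB2 and HOXB9 at day 7, by HOXB9, HOXB4 and HOXB2 at day 9 and by HOXB9, HOXB7 and HOXB2 at day 12. HOXB9, a gene patterning the chest, had 9.18, 11.6 and 27.7 CPM at days 7, 9 and 12, in 4.22%, 4.92% and 12.3% of thinned cells. It was 3.02-fold higher at day 12 than at day 7 (2.39 to 3.80), and 4.51% of all genes were at least 2-fold higher. The day 7 value depends on the classing, at 8.67 to 15.9 CPM under the other settings, where day 12 lay at 26.99 to 27.9 CPM. HOXB2 had 14.9, 7.25 and 5.78 CPM and HOXB4 15.2, 7.93 and 3.13 CPM. Both were at least 2-fold lower at day 12 than at day 7, at folds of 0.388 (0.245 to 0.587) and 0.206 (0.108 to 0.356), and so were 26.3% of all genes. Of these 2 days HOXB9 reached 10 CPM at day 12 alone, and HOXB2 and HOXB4 at day 7 alone, so the limit favoured these directions. Against erythroid-like cells, endothelial-like cells were at least 2-fold higher for 6 of 8 genes at day 7, 7 of 7 at day 9 and 8 of 9 at day 12, beside 28.6%, 28% and 48.4% of all genes. All of these genes reached 10 CPM in endothelial-like cells, but only 2, 1 and 1 in erythroid-like cells by day. Most thus entered through endothelial-like cells alone and could not have come out lower. At day 12 none of the 9 was at least 2-fold lower, against 9.6% of all genes. HOXB5, for example, had 46.3 CPM in endothelial-like and 0.241 CPM in erythroid-like cells of day 12. HOXB9 was the exception at day 12, at 43.0 CPM in endothelial-like and 27.7 CPM in erythroid-like cells (1.55-fold, 1.24 to 1.96).

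Endoderm-like cells were led by HOXB6, HOXB9 and HOXB8 at day 7 (27.3, 23.8 and 19.8 CPM) and by HOXB7, HOXB6 and HOXB8 at day 9 (13.1, 12.3 and 11.6 CPM). Of the 5 HOX genes at 10 CPM in either day, HOXB6 and HOXB9 were at least 2-fold lower at day 9 than at day 7. Their folds were 0.451 (0.326 to 0.612) and 0.402 (0.278 to 0.567), and 2.1% of all genes were as much lower. All 5 reached 10 CPM at day 7 but only 4 at day 9, which favoured lower values at day 9. Endoderm-like cells lay at least 2-fold under endothelial-like cells for 3 of 8 genes at day 7 (18.9% of all genes) and 6 of 7 at day 9 (15.7%). All 8 and 7 genes reached 10 CPM in endothelial-like cells, but only 5 and 4 in endoderm-like cells, which favoured lower values there. HOXB5 had 3.63 and 7.04 CPM in endoderm-like cells at days 7 and 9, and 42.7 and 35.0 CPM in endothelial-like cells. HOXA13, the 5′ gene of the hindgut, stayed under the limit at 5.35 and 4.02 CPM in endoderm-like cells, and CDX2, an upstream factor of the hindgut, had 74.9 and 59.3 CPM there, 1.66 and 1.15 CPM in endothelial-like cells.

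Macrophage-like cells carried 1 HOX gene at 10 CPM, HOXB7, at 16.7 CPM (15.7 to 17.7). HOXB4 (3.95 CPM) and HOXB2 (3.84 CPM) followed it. HOXB6, which is known to act in myelomonocytic differentiation, had 2.16 CPM and HOXB3 2.03 CPM. A HOXB7 UMI was found in 35.0% of macrophage-like cells at full depth and in 8.25% after thinning, against 14.0% of thinned stroma-like cells and 26.8% of thinned endothelial-like cells. HOXB3 was found in 1.29% of thinned macrophage-like cells, against 30.8% of stroma-like and 30.1% of endothelial-like cells. HOXB7 UMIs outnumbered HOXB3 UMIs 8.24 to 1 in macrophage-like cells (6.89 to 9.93), while the ratio was 0.377 in stroma-like cells, 0.657 in endothelial-like cells and 0.778 in granulocyte-like cells of the same library. Erythroid-like cells of that library also had more HOXB7, at a ratio of 2.42 (1.20 to 5.20) from 29 and 12 UMIs. Macrophage-like cells held 274 CPM of summed stroma markers and 164 CPM of summed endothelial markers. In the 2 macrophage-like clusters HOXB7 was at 16.6 CPM (15.4 to 17.8) in the 1480 cells led by CCL4 and 16.9 CPM (15.2 to 18.7) in the 649 cells led by MRC1. HOXB6 was at 2.99 CPM (2.50 to 3.54) in the CCL4-led and 0.419 CPM (0.192 to 0.796) in the MRC1-led cells. Macrophage-like cells had 9.79 times the HOXB7 of granulocyte-like cells (16.7 CPM against 1.71 CPM; interval 5.81 to 17.97), and 12.3% of all genes were at least 2-fold higher. Of these 2 classes HOXB7 reached 10 CPM in macrophage-like cells alone, so it could not have come out lower there. The share of all genes is thus no fair measure for it. Across the other settings HOXB7 lay between 16.5 and 17.6 CPM, whereas HOXB3 reached 5.95 CPM with predicted doublets kept.

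At days 7 and 9 the most HOX RNA was found in 2 clusters without a class name. The ACTC1-led cluster summed to 573, 447 and 437 CPM at days 7, 9 and 12 (1021, 1847 and 64 cells). HOXB9 there had 94.1, 52.4 and 43.6 CPM, HOXB3 87.1, 106 and 66.1 CPM, and HOXC8 61.8, 41.8 and 39.03 CPM. The cluster led by LIX1 and KCTD8 summed to 378 and 382 CPM at days 7 and 9 (668 and 2366 cells), with HOXB3 at 78.1 and 113 CPM and HOXC8 at 37.6 and 35.7 CPM. HOXC8 had 0.793 and 1.48 CPM in endothelial-like cells of these days. Of the genes at 10 CPM, 7 of 11 and 6 of 11 were at least 2-fold higher in the ACTC1-led cluster than in endothelial-like cells at days 7 and 9 (12.3% and 11.3% of all genes), and 3 of 10 and 4 of 10 in the LIX1-led cluster (13.7% and 15.1%). Each of the 11 or 10 genes reached 10 CPM in the cluster, but only 8 and 7 in endothelial-like cells at days 7 and 9. That favoured higher values in the clusters.

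Genes of HOX partners and upstream factors were read in the same classes. MEIS1, a HOX cofactor and leukaemia gene, had 225 CPM in stroma-like cells, 268, 283 and 264 CPM in endothelial-like cells at days 7, 9 and 12, 91.6, 51.4 and 7.71 CPM in erythroid-like cells and 11.3 CPM in macrophage-like cells. Of 9 cofactor genes, 9 reached 10 CPM in stroma-like cells, 6 in endothelial-like cells of each day and 5 in macrophage-like cells, where PBX3 and MEIS2 led. Of 3 CDX genes, only CDX2 reached 10 CPM. It did so in endoderm-like cells and in unnamed clusters, at 53.9, 36.5 and 12.4 CPM in the ACTC1-led cluster at days 7, 9 and 12 and at 14.6 and 10.8 CPM in the LIX1-led cluster at days 7 and 9. Of 15 Polycomb genes, 12 reached 10 CPM in stroma-like cells, 12, 12 and 13 in endothelial-like cells by day and 9 in macrophage-like cells, with JARID2 the highest in each. CYP26B1, an enzyme that breaks down retinoic acid, had 0.793, 0.890 and 96.0 CPM in endothelial-like cells at days 7, 9 and 12, and 1.03 CPM in stroma-like cells. HOXB-AS3, a noncoding gene of the HOXB complex, had 36.7 CPM in stroma-like, 9.64, 9.92 and 13.5 CPM in endothelial-like and 0.60 CPM in macrophage-like cells.

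In bulk macrophage libraries HOXB7 was the HOX gene with the highest TPM in 30 of 32 libraries, and HOXB2 in 2, replicate 1 of day 23 with FBS (24.9 TPM, with 8.72 TPM of HOXB7) and replicate 1 of SP6A (4.38 TPM, with 4.19 TPM of HOXB7). HOXB7 was above 0 in all 32 libraries and made 22.7% to 92.1% of summed HOX TPM. Of the 39, 12 were listed at 0 in all 32 libraries, 21 were above 0 in 1 to 3 libraries and 6 in most of them. HOXB2 to HOXB7 (6 genes) reached a mean of 1 TPM in at least 1 group, and the highest value of the 29 HOXA, HOXC and HOXD genes in any library was 1.70 TPM. Only HOXB2, HOXB6 and HOXB7 passed the filter of a mean of 1 TPM over the libraries of a fit, so 36 of the 39 could not be tested. In bulk RNA, fewer cells of a type and less RNA per cell cannot be told apart. Changes are differences of mean log2(TPM + 1), tested with limma and Benjamini-Hochberg adjustment over all genes, and they understate the change of low genes.

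**Figure D4:**
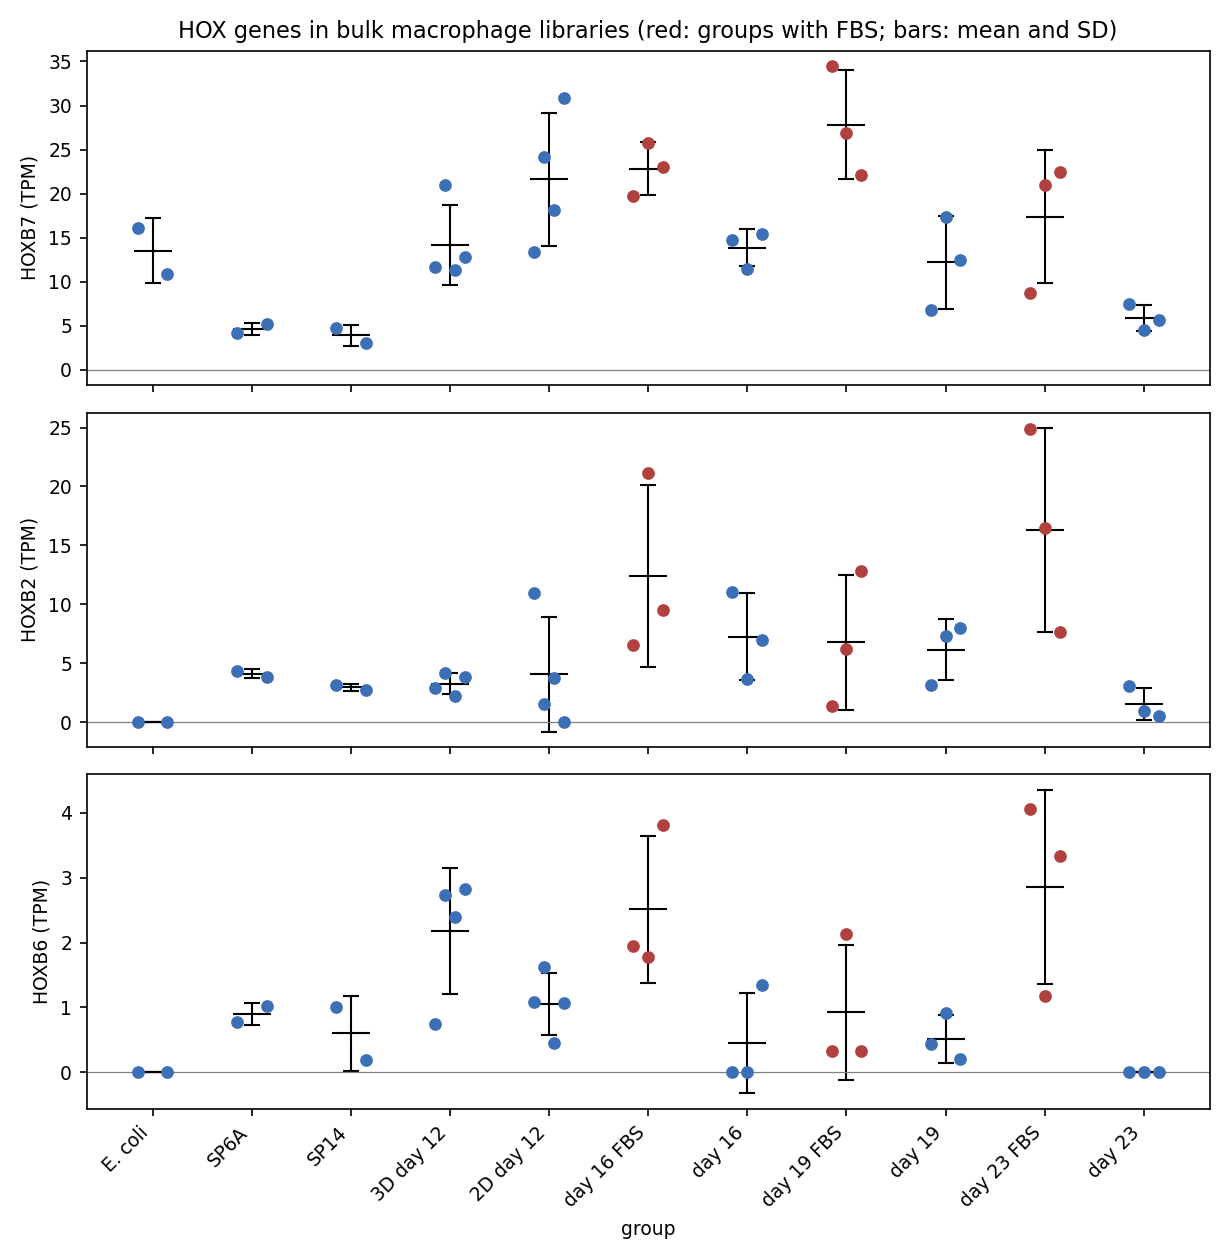
TPM of HOXB7, HOXB2 and HOXB6 in each bulk library (points) by group, with group mean and SD (bars) and FBS groups in red; days without mention of 2D are 3D culture. HOXB7 is above 0 in each library, from 3.06 TPM in SP14 to 34.5 TPM in day 19 with FBS, and HOXB6 is at 0 in the 3 libraries of day 23 without FBS.

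The HOX genes that could be tested were higher with FBS. HOXB7 had 19.7, 25.8 and 22.97 TPM with FBS at day 16, against 14.8, 11.5 and 15.4 TPM without. At day 19 it had 34.5, 26.9 and 22.1 TPM with FBS, against 6.81, 17.3 and 12.5 TPM without, and at day 23 8.72, 21.0 and 22.5 TPM with FBS, against 7.43, 4.47 and 5.71 TPM without. The groups did not overlap at any of the 3 days, which was also so for 39.3%, 40.7% and 35.5% of the genes that passed the filter at days 16, 19 and 23. HOXB2 had 6.57, 21.1 and 9.54 TPM with FBS at day 16, against 11.1, 3.70 and 7.01 TPM without, and the groups overlapped. At day 19 it had 1.37, 6.20 and 12.8 TPM with FBS, against 3.19, 7.30 and 8.02 TPM without, again overlapping. At day 23 it had 24.9, 16.5 and 7.64 TPM with FBS, against 3.10, 0.97 and 0.58 TPM without. HOXB6 had 4.06, 1.18 and 3.34 TPM with FBS at day 23, against 0 TPM in all 3 libraries without.

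Summed over the 39 genes, HOX RNA made 29.6 to 54.4 TPM with FBS and 15.6 to 27.4 TPM without at day 16, 39.7 to 42.1 TPM with FBS and 12.1 to 25.99 TPM without at day 19, and 34.0 to 39.4 TPM with FBS and 6.93 to 11.1 TPM without at day 23. The groups did not overlap on any day. HOXB7 alone made 22.7% to 81.9% of this sum with FBS and 53.9% to 82.4% without. The sum is thus no result apart from that of HOXB7.

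Averaged over the 3 days, all 3 genes tested rose with FBS, while 44.5% of all genes passed the test and 23.7% of all genes rose. The log2 change was 1.07 for HOXB7 (SE 0.19, adjusted p 0.000157), 1.15 for HOXB6 (SE 0.24, adjusted p 0.000553) and 1.09 for HOXB2 (SE 0.32, adjusted p 0.00932), by limma with Benjamini-Hochberg adjustment. By day, a split added after seeing the data, 27.5%, 36.3% and 22.3% of all genes passed the limma test at days 16, 19 and 23. HOXB2 rose at day 23 (2.75, limma adjusted p 0.00119) and had changes of 0.65 at day 16 (adjusted p 0.421) and -0.14 at day 19 (adjusted p 0.879). The difference between its changes at days 23 and 19 was 2.89 (SE 0.79, limma adjusted p 0.0128; 20.9% of all genes passed this test). HOXB7 rose at days 19 and 23 (1.19 and 1.34; limma adjusted p 0.00921 and 0.00675) with 0.68 at day 16 (adjusted p 0.143), and HOXB6 rose at days 16 and 23 (1.36 and 1.86; limma adjusted p 0.0188 and 0.00259) with 0.25 at day 19 (adjusted p 0.681). HOXB3, HOXB4 and HOXB5 were too low to test. HOXB3 had 0.82, 1.41 and 1.65 TPM with FBS at day 16, against 0.08, 0.08 and 0.16 TPM without. At day 19 it had 5.12, 1.84 and 2.06 TPM with FBS, against 1.40, 0.07 and 0.07 TPM without. At day 23 it had 0.38, 0.63 and 0.24 TPM with FBS, against 0.32, 0.41 and 0.20 TPM without. HOXB4 had 0.53, 1.1 and 0.57 TPM with FBS at day 16, against 0, 0.34 and 0.09 TPM without. At day 19 it had 0.79, 0.75 and 0.82 TPM with, 0.09, 0.38 and 0.65 TPM without. At day 23 it had 0.37, 0.08 and 0.27 TPM with, 0.24, 0.93 and 0.44 TPM without. HOXB5 had 0, 3.06 and 1.93 TPM with FBS at day 16, against 1.47, 0 and 0 TPM without. At day 19 it had 0, 1.93 and 1.58 TPM with, 0.17, 0 and 0 TPM without. At day 23 it had 0 TPM with, 0, 0.67 and 0 TPM without.

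Of 4 retinoic acid receptor genes tested, RARA, RXRA and RXRB rose with FBS, RARA by 1.17 (7.77 TPM with FBS, 3.12 TPM without; limma adjusted p 0.00274), and RARG had a change of 0.44 (limma adjusted p 0.0923). HOXB-AS1, a noncoding gene of the HOXB complex, rose by 1.56 (7.01 TPM with FBS, 1.28 TPM without; limma adjusted p 0.000714). Of 5 cofactors tested of 9 listed, PBX3 and PBX2 rose and 0 fell, and of 14 Polycomb genes tested of 15 listed 5 rose and 3 fell, beside 23.7% of all genes that rose and 20.8% that fell. GMNN, encoding geminin, a protein that binds HOX factors and a replication factor, fell by 2.28 (3.81 TPM with FBS, 20.4 TPM without; limma adjusted p 1.91e-07).

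Beside these changes, 3 genes with clone names (FP236383.2, FP236383.3 and FP671120.3) took 17.96% to 27.4% of TPM with FBS and 12.5% to 20.5% without at day 16, 24.1% to 32.3% and 12.8% to 21.3% at day 19, and 15.7% to 20.1% and 15.5% to 20.7% at day 23. Summed endothelial markers were lower with FBS at day 16 (101.1 to 123 TPM with, 142 to 209 TPM without) and higher with FBS at day 19 (266 to 376 TPM with, 120 to 185 TPM without) and day 23 (105 to 146 TPM with, 32.1 to 46.9 TPM without). At day 23 EMCN and ERG were at 0 in both groups, 3 of 12 endothelial markers with FBS and 4 without averaged 1 TPM, and stroma markers summed to 0 to 4.83 TPM with FBS and 4.56 to 4.96 TPM without. Lymphoid markers at day 23 summed to 32.5 to 40.0 TPM with FBS and 154 to 180 TPM without, where 2 of 9 with FBS and 3 without averaged 1 TPM. Their part in the HOX changes was not tested.

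Over time without FBS, HOXB6 and HOXB7 were lower at the end than at day 12. HOXB7 had 11.7, 21.0, 11.4 and 12.8 TPM at 3D day 12, 14.8, 11.5 and 15.4 TPM at day 16, 6.81, 17.3 and 12.5 TPM at day 19, and 7.43, 4.47 and 5.71 TPM at day 23. The 3 libraries of day 23 lay under all 4 of day 12, and 41.4% of the genes that passed the filter did not overlap between these groups. HOXB6 had 0.74, 2.74, 2.39 and 2.83 TPM at day 12, 0, 0 and 1.34 TPM at day 16, 0.43, 0.92 and 0.20 TPM at day 19, and 0 TPM in all 3 libraries of day 23. At day 23 against day 12, HOXB7 fell by 1.13 (SE 0.31, limma adjusted p 0.00821) and HOXB6 fell by 1.60 (SE 0.39, limma adjusted p 0.00281), and 35.1% of all genes passed. HOXB2 had a change of -0.85 (adjusted p 0.223), with 2.90, 4.17, 2.22 and 3.81 TPM at day 12 and 3.10, 0.97 and 0.58 TPM at day 23. At day 16 against day 12 HOXB6 passed the test (-1.19, SE 0.39, limma adjusted p 0.0275), beside 25.7% of all genes (16.3% higher and 9.46% lower), and HOXB7 had a change of 0.00. That call was lost with replicate numbers as a block (-1.08, limma adjusted p 0.0822), without the filter on low values (adjusted p 0.0579), and without 3D day 12 replicate 2, 3 or 4 or day 16 replicate 1 or 2 (limma adjusted p 0.00791 to 0.127 over all libraries left out in turn). At day 19 none of the 3 passed (19.2% of all genes did, 10.3% higher and 8.91% lower), HOXB6 coming nearest at -1.03 (limma adjusted p 0.0695), and it was the 1 gene of the 3 with an unadjusted p under 0.05. It passed without 3D day 12 replicate 1 (-1.29, limma adjusted p 0.0264). Summed endothelial markers were 32.1 to 46.9 TPM at day 23 and 71.2 to 131 TPM at day 12, and summed stroma markers 4.56 to 4.96 TPM at day 23 and 6.49 to 78.3 TPM at day 12. Erythroid markers summed to 2.59 to 7.75 TPM at day 23 and 31.7 to 1737 TPM at day 12, and granulocyte markers to 7.00 to 10.1 TPM at day 23 and 34.4 to 155 TPM at day 12. Their part in the HOX changes was not tested. Of 14 Polycomb genes tested, 5 rose (RING1, PCGF2, PHC2, BMI1 and JARID2) and 2 fell (EZH2 and RNF2) at day 23 against day 12, beside 14.7% of all genes that rose and 20.4% that fell. GMNN fell by 2.41 (15.1 TPM at day 23, 79.1 TPM at day 12; limma adjusted p 5.39e-05).

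Between 3D and 2D at day 12, none of the 3 HOX genes tested passed with limma, 0 had an unadjusted p under 0.05, and 37.8% of all genes passed. HOXB7 had 11.7, 21.0, 11.4 and 12.8 TPM in 3D, against 13.4, 24.2, 18.2 and 30.9 TPM in 2D, overlapping groups where 38.3% of the genes that passed the filter did not overlap (-0.55, SE 0.30, limma adjusted p 0.173). HOXB6 had 0.74, 2.74, 2.39 and 2.83 TPM in 3D, against 1.09, 1.62, 0.45 and 1.06 TPM in 2D (0.59, SE 0.30, limma adjusted p 0.154). HOXB2 had 2.90, 4.17, 2.22 and 3.81 TPM in 3D, against 10.95, 1.54, 3.77 and 0 TPM in 2D. Its means were 3.28 TPM in 3D and 4.07 TPM in 2D, while its change on the log2 scale was 0.28 (SE 0.66, limma adjusted p 0.766), so the scales differed in sign. Without 3D replicate 1, the library with 0.74 TPM, HOXB6 passed (0.86, limma adjusted p 0.0264). HOXB4 was under the filter and, like 4.33% of the genes that were above 0 but under it, did not overlap, at 0.11, 0.20, 0.69 and 0 TPM in 3D, against 1.30, 1.34, 2.28 and 1.03 TPM in 2D. Among the partners, the cofactors PBX2 and PBX4 fell in 3D, PBX2 with 3.85 TPM in 3D and 13.1 TPM in 2D (-1.60, limma adjusted p 0.0055). Of 14 Polycomb genes tested 7 fell, PCGF2 by 2.61, and RNF2 rose by 1.09, beside 24.7% of all genes that fell and 13% that rose. HOTAIRM1, a noncoding gene of the HOXA complex known from myeloid cells, fell by 1.69 (3.81 TPM in 3D, 14.1 TPM in 2D; limma adjusted p 0.00303). The median change of all genes was -0.21. Stroma markers summed to 6.49 to 78.3 TPM in 3D and 1.12 to 2.88 TPM in 2D, and no HOXC gene reached a group mean of 1 TPM. Summed markers of 3 blood cell types were lower in 3D, without overlap. Granulocyte markers summed to 34.4 to 155 TPM in 3D and 1435 to 2794 TPM in 2D, megakaryocyte markers to 78.1 to 102 TPM in 3D and 748 to 1271 TPM in 2D, and erythroid markers to 31.7 to 1737 TPM in 3D and 3432 to 4411 TPM in 2D. Their part in the HOX and partner values was not tested.

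SP6A and SP14 libraries had less HOXB7. It had 4.19 and 5.15 TPM in SP6A and 4.74 and 3.06 TPM in SP14, against 11.7, 21.0, 11.4 and 12.8 TPM in 3D day 12. The groups did not overlap, which was also so for 60.6% (SP6A) and 60.7% (SP14) of the genes that passed the filter. It fell by 1.39 in SP6A (SE 0.36, limma adjusted p 0.00413; 37.7% of all genes passed) and by 1.61 in SP14 (SE 0.36, limma adjusted p 0.00106; 40.4% passed), 2 comparisons that share their day 12 libraries. The SP6A call was lost without SP6A replicate 1 (-1.26, limma adjusted p 0.0561). HOXB2 had 4.38 and 3.84 TPM in SP6A and 3.21 and 2.79 TPM in SP14, against 2.90, 4.17, 2.22 and 3.81 TPM in 3D day 12, overlapping groups. HOXB6 had 0.78 and 1.02 TPM in SP6A and 1.01 and 0.19 TPM in SP14, and did not pass the test in either comparison, except in SP14 without 3D day 12 replicate 1 (-1.24) or with array weights (-0.98). Summed markers listed for other cell types differed as well, though few of the listed genes carried the endothelial and lymphoid sums. Endothelial markers summed to 370 to 380 TPM in SP6A and 334 to 356 TPM in SP14, against 71.2 to 131 TPM in 3D day 12, and megakaryocyte markers to 187 to 190 TPM in SP6A and 358 to 386 TPM in SP14, against 78.1 to 102 TPM. Lymphoid markers summed to 24.8 to 27.5 TPM in SP6A and 35.2 to 38.1 TPM in SP14, against 193 to 225 TPM in 3D day 12. Of 12 endothelial markers, 4 averaged at least 1 TPM in SP6A, 3 in SP14 and 4 in 3D day 12. CLDN5, EMCN, ERG and ROBO4 were at 0 in all SP6A and SP14 libraries. Of 9 lymphoid markers, 2 averaged at least 1 TPM in SP6A, 2 in SP14 and 3 in 3D day 12. Macrophage markers summed to 22256 to 23281 TPM in SP6A and 20114 to 20574 TPM in SP14, against 12808 to 15124 TPM. Their part in the HOXB7 change was not tested.

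In the E. coli libraries HOXB7 had 16.1 and 10.9 TPM, within the range of the 3D libraries without FBS, and did not pass the test against the mean of days 12, 16, 19 and 23 (0.30, limma adjusted p 0.448). HOXB2 and HOXB6 were listed at 0 in both E. coli libraries. These 2 libraries had 7954 and 8103 genes at 1 TPM, against 11862 to 13257 in the other libraries. The part of this lower detection in the values at 0 was not tested. HOXB2 passed the test (-2.25, SE 0.51, limma adjusted p 0.000803), as did 56.6% of all genes, 42.9% of all genes fell, and the median change of all genes was -0.84. With libraries weighted by quality the HOXB2 call was lost (limma adjusted p 0.519). The 2 E. coli libraries correlated at 0.657 with each other, against 0.891 to 0.968 for replicates of other groups, and showed 3 and 12 HOX genes above 0, against 4 to 10 in the other libraries.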

How the data were processed

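Bulk RNA came from TRIzol extracts and SMART-seq2 libraries, per the labels' protocols, and the authors deposited TPM of 58735 genes in 32 libraries. Single-cell UMI counts of 36601 genes were made by the authors with Cell Ranger 7.1.0 (days 7 and 9) and 7.0.0 (day 12), per the file headers. The submitters' processing notes list DESeq2, HISAT2, HTSeq (0.11.1) and Trim Galore (0.4.4), with no word on the tool behind the TPM. The 19 chromatin libraries were not analysed here.

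TPM were tested as log2(TPM + 1) with limma 3.58.1 (R 4.3.3), for genes averaging 1 TPM or more in the fitted libraries, with Benjamini-Hochberg adjustment over all genes tested and a threshold of 0.05. Day 12 in 3D and 2D had a fit of its own, and time, FBS, SP6A and SP14 shared a fit without the E. coli libraries. The fit was tested on simulated data. Deposited counts were filtered at 1000 UMIs, 500 genes and 15% mitochondrial counts, and Scrublet (expected rate 0.06) removed doublets. Clustering used scanpy 1.11.5 and leidenalg 0.10.2 (2000 variable genes, 30 components, 15 neighbours, resolution 0.5), with 57 HOX and HOX noncoding genes left out. UMIs were summed by class and day as CPM, for classes of at least 50 cells, and a fold needed 10 CPM in the higher class. Where a count was 0, a floor of 3 counts gave a bound. Shares were taken after thinning cells of at least 5000 UMIs to 5000, without the shallower cells.

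HOX genes were named by value if they reached 10 CPM in a class, a mean of 1 TPM in a bulk group or an adjusted p under 0.05. Bulk values of HOXB3, HOXB4 and HOXB5 are given for some groups only. The genes and lists were chosen with earlier results of these data known, and some members of the partner lists are not reported here. Replicate numbers were compared between groups: same-numbered libraries deviated together at correlations of -0.008 to 0.0352 for 3D and 2D and -0.0500 to 0.0469 for FBS, so numbers were not taken as pairs. Alternatives were other pseudocounts, filters, scalings and weights, single libraries left out, and other classings of cells.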

Additional observations from a re-analysis of the deposited data

Results flagged for a closer look

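Among the 12 gene and group combinations of 4 libraries or more that were examined, 1 library stood apart. HOXB7 had 20.96 TPM in 1 library of 3D day 12, where the next highest had 12.75 TPM and the lowest 11.36 TPM. Chance sets about 1 in 20 such groups apart. The change of HOXB2 with FBS was larger at day 23 than at day 19, with a difference of 2.89 on the log2 scale (SE 0.79, limma adjusted p 0.0128), the only 1 of 9 such contrasts of 3 HOX genes to pass. HOXB2 was higher with FBS in 3 of 3 libraries at day 23 and overlapped at day 19.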

How the results depend on the processing

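The 3 HOX genes called with FBS and the 2 called at day 23 were called under each alternative tried, and leaving out single libraries gave 3 and 2 calls. The day 16 count of 1 was 0 with no filter on low values, 0 with replicate numbers as a block, and 0 to 1 with single libraries left out (without 3D day 12 replicate 2, 3 or 4, or day 16 replicate 1 or 2, it was 0). Same-numbered libraries were not shown to be pairs, and the block changed no other count. The 3D against 2D count of 0 was 1 with no filter, and 0 to 1 with single libraries left out. The day 19 count of 0 was 1 with median-ratio scaling and 0 to 1 with libraries left out. The SP6A count of 1 was 2 with no filter and 0 to 1 with libraries left out, and the SP14 count of 1 was 2 with array weights and 1 to 2 with libraries left out (HOXB6, lowest limma adjusted p 0.0299). The E. coli count of 1 was 2 with a pseudocount of 0.1 TPM, 11 with no filter, 0 with array weights and 1 with libraries left out.

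Uncalled changes near 0 changed sign. For HOXB7 at day 16 the values were -0.27 with median-ratio scaling, -0.033 with the replicate block, -0.034 with array weights, and -0.084 to 0.19 with libraries left out. For HOXB7 at day 19 they were 0.030 with array weights and -0.53 to 0.090 with libraries left out. With libraries left out, HOXB2 lay between -0.32 and 0.87 for 3D against 2D and between -0.20 and 0.026 for SP14.

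In single cells, a limit of 20 CPM gave 10 HOX genes in stroma-like cells, 0 and 0 in erythroid-like cells at days 7 and 9, 2 and 0 in endoderm-like cells, 0 in macrophage-like cells and 7 in the ACTC1-led cluster at day 12. Classes set by markers cell by cell gave 3 and 0 in endoderm-like cells. With HOX genes allowed in clustering, where 0 of them were among the variable genes, erythroid-like cells of day 7 had 5. Without thinning, a HOX UMI was found in 91.6%, 87.7% and 92.1% of endothelial-like cells by day, 97.0% of stroma-like cells, 67.9%, 41.4% and 44.8% of erythroid-like cells, 67.3% and 45.1% of endoderm-like cells and 55.1% of macrophage-like cells. Erythroid-like HOXB9 at day 7 lay at 11.1 CPM at resolution 1.0, 15.9 CPM with HOX genes allowed and 12.2 CPM with doublets kept, against 9.18 CPM as reported. The cause of these shifts was not tested.

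Low levels limit the HOX genes: in bulk RNA 36 of 39 lay under the filter, and in single cells 23 of 39 stayed under 10 CPM in each class.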

Other observations

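Other classes and clusters also held HOX RNA. The cluster led by CLC and PRG2, genes of eosinophil granules, summed to 199, 73.6 and 39.7 CPM over the 39 genes at days 7, 9 and 12 (156, 342 and 271 cells), with 99.0%, 94.3% and 89.7% from HOXB. In that cluster HOXB4 had 33.1, 12.3 and 11.5 CPM and HOXB6 had 29.6 and 7.58 CPM at days 7 and 9. Megakaryocyte-like cells summed to 120, 75.2 and 60.8 CPM by day (1328, 1749 and 266 cells), where HOXB9 had 22.8, 13.7 and 5.07 CPM, HOXB5 15.9, 12.1 and 12.5 CPM. This class joined a cluster of 1328, 1743 and 147 cells at days 7, 9 and 12 with a cluster led by PPBP and CCL5 of 0, 6 and 119 cells. Its day 12 cells also held 50528 CPM of summed erythroid markers. The lower HOXB9 by day was thus seen in a class whose make-up changed, in single libraries without replicates. The cluster led by SLC5A12 and PTGDS of day 12 (224 cells) had HOXC8 at 62.3 CPM and HOXB3 at 63.5 CPM, beside 14425 CPM of summed stroma markers, and its HOX UMIs were 60.1% HOXB and 31.5% HOXC.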
